A study of Mus musculus with 6 samples.

Results

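Tubulin isotype genes were taken as the 10 genes, of 53801 in the table of embryonic brain counts, whose symbol was Tuba1a, Tuba1b, Tuba1c, Tubb2a, Tubb2b, Tubb3, Tubb4a, Tubb4b, Tubb5 or Tubb6. All 10 were found once each, and they comprised 3 genes of alpha-tubulin and 7 of beta-tubulin. RNA-seq measured polyadenylated RNA in whole brains of C57BL/6 mouse embryos at E16.5, a late fetal stage. The 3 Bahd1-KO embryos (Bahd1-/-) descended from crosses of heterozygous Bahd1-Het1 mice and carried no functional Bahd1, and the 3 Bahd1-WT embryos (Bahd1+/+) were wild type. BAHD1 is a scaffold protein that helps to form repressive chromatin, and the comparison asked whether its absence altered the brain transcriptome before birth. Bahd1-KO replicate 3 is shown apart throughout, because its library stood apart from the other 5.

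Microtubules are hollow polymers of alpha- and beta-tubulin heterodimers, and each subunit is encoded by several genes whose products are called isotypes. Isotypes of a family are nearly alike except for an acidic tail at the C terminus, which lies on the outside of the microtubule and is the place where enzymes add or remove glutamate and tyrosine and where motors and microtubule-associated proteins bind. Tuba1a, Tubb2b and Tubb3 are known for their high expression in young neurons that migrate and grow axons, and mutations in their human counterparts cause malformations of the cerebral cortex.

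The start of the coding sequence is shown because nascent tubulin chains are recognised there by TTC5, the adaptor through which cells degrade tubulin mRNA when free tubulin is in excess. The first 4 codons are given in capitals, 5′ to 3′, as read from the GENCODE M21 transcripts of the GRCm38 assembly. All 3 alpha members shared 1 sequence, which encodes methionine, arginine, glutamate and cysteine. The beta members below encode methionine, arginine, glutamate and isoleucine with differing codons.
Tuba1a, Tuba1b and Tuba1c: ATGCGTGAGTGC
Tubb2a: ATGCGCGAGATC
Tubb2b: ATGCGAGAGATC
Tubb3 and Tubb4b: ATGAGGGAGATC
Tubb4a: ATGCGGGAAATC
Tubb5: ATGAGGGAAATC

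The last 20 codons before the stop codon of the beta members below are shown because they encode the tail in which isotypes differ and because they show how little separates some genes for a sequencing read. Capitals mark the glutamate codons, the sites to which glutamate chains can be attached.
Tubb2a: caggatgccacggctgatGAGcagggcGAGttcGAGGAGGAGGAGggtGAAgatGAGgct
Tubb2b: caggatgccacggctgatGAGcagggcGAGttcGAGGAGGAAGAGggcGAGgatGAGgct
Tubb3: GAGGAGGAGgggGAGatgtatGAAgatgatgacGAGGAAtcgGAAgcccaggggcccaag
Tubb4a: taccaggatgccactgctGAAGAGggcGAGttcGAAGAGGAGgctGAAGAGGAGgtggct
Tubb4b: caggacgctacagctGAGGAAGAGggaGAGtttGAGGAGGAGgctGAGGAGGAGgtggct
Tubb5: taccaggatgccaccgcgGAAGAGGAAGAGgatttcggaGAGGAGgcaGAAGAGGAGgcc

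These tails held 8 (Tubb2a, Tubb2b and Tubb3) to 10 (Tubb4b) glutamate codons, and Tubb3 was the member shown whose last codon encoded lysine (AAG) in place of alanine. Over these 60 bases Tubb2a and Tubb2b differed at 3 positions, G42A, T48C and A51G, with the base of Tubb2a first and positions counted from 1 at the first base shown. All 3 keep the encoded amino acid, so the stretches shown for these 2 genes encode the same residues. Over the whole coding sequence, identity was 97.2 to 98.3% between the alpha members, 96.5% between Tubb2a and Tubb2b, and 80.7 to 86.2% between the other pairs of beta members. Tubb2a and Tubb2b also shared an unbroken identical run of 551 bases.

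This likeness limits how far reads can be assigned to 1 gene. Each transcript was cut into windows of 65 bases, the read length in the study's main methods. A window was called its own if no annotated transcript of another gene contained it. The study's supplement also describes a run with shorter reads, and shorter windows were not compared. Tubb4a shared an identical run of 53 bases with Tubb2a, so reads shorter than this run could match both. At 65 bases, all windows of Tubb3, Tubb4a, Tubb5 and Tubb6 were their own. The share of own windows was 65.3% for Tubb2b, 57.2% for Tubb4b, 54.5% for Tubb2a, 41.8% for Tuba1c, 27.5% for Tuba1a and 19.8% for Tuba1b. The readthrough gene Gm49450 covers 473 of the 1803 exonic bases of Tuba1a (26.2%) and 426 of the 1875 of Tuba1b (22.7%) on the same strand, had 0 counts in all embryos, and makes reads in the shared exons ambiguous for gene-level counting. Levels of the alpha members, Tubb2a, Tubb2b and Tubb4b may therefore be too low if shared reads were left out, or too high if they were counted. Which was done is not given in the sources used here, and how many reads this concerned was not tested. Comparisons of 1 gene between embryos use the same windows in every embryo. Where the level of a paralog differs between embryos, shared reads could still differ too.

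**Figure D1:**
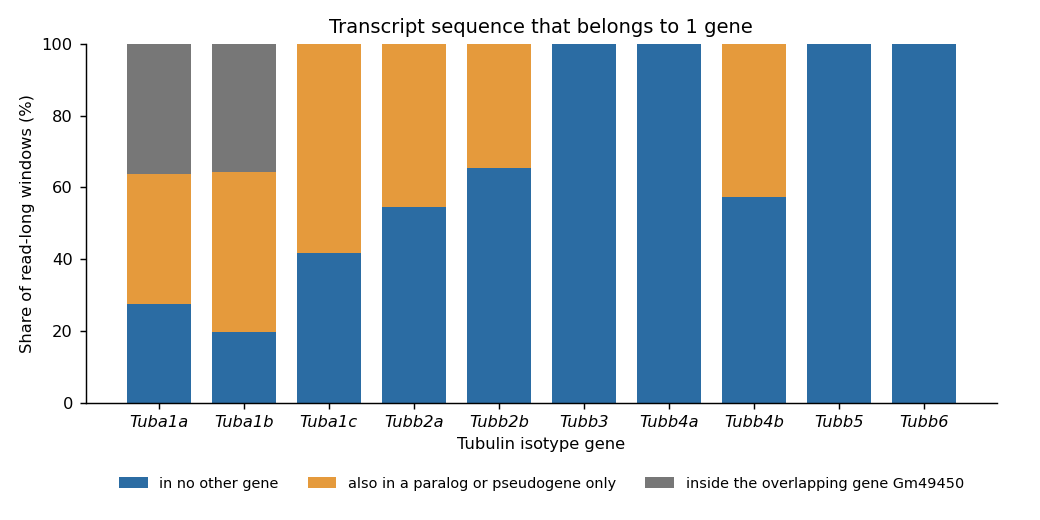
Bars show, for each tubulin isotype gene (x axis), the share of 65-base windows of its transcripts (y axis, %) found in no other gene, found also in a paralog or pseudogene, or lying in the overlapping gene Gm49450. For Tubb3, Tubb4a, Tubb5 and Tubb6 the whole bar is own windows, whereas Tuba1b has 19.8%.

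Each library held 61.7 to 91.8 times 1e6 counts. Protein-coding genes, those of the mitochondrial genome included, took 97.8 to 98.4% of the counts in 5 embryos and 53.5% in Bahd1-KO replicate 3, where Gm42418, annotated over ribosomal RNA, took 22.6% against 0.120 to 0.394% elsewhere. Bahd1 checked the genotypes, with at most 10 counts in any Bahd1-KO embryo, at least 1971 in any Bahd1-WT embryo, and a log2 fold change of -8.40 (SE 0.606, adjusted p 0.0462, edgeR). Of the markers of the labelled tissue, those of neurons summed to 4715 to 5799 CPM in 5 embryos and to 1458 CPM in Bahd1-KO replicate 3. Sftpc, a surfactant gene of lung that was chosen here after its values were seen, had 566 CPM in that library against at most 2.94 CPM elsewhere, so that its values went against a label of brain alone. In bulk tissue, fewer cells of a type and less RNA per cell cannot be told apart. The p-values measure the spread between these embryos, which the labels call biological replicates.

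The 10 tubulin genes together took 0.491% of all counts in Bahd1-KO replicate 1, 0.862% in replicate 2 and 0.0601% in replicate 3. In Bahd1-WT replicates 1, 2 and 3 the share was 0.668, 0.972 and 1.05%. The 95% Wilson interval in Bahd1-KO replicate 3 was 0.0596 to 0.0606%, and such intervals cover counting error only. Single genes rested on 132 counts (Tuba1c in Bahd1-KO replicate 1) to 285184 counts (Tubb5 in Bahd1-WT replicate 3), so that counting error was small beside the spread between embryos for the abundant isotypes.

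Levels of different genes were compared as counts per 1e6 counts (CPM) and per kilobase of exonic sequence (CPM per kb). In Bahd1-WT embryos Tubb2b was at 1063 ± 213, Tuba1a at 909 ± 68.4, Tubb5 at 755 ± 229 and Tubb3 at 725 ± 292 CPM per kb (mean ± SD, n = 3). The ranges of these neighbours overlapped, so their order was not resolved. Tubb2a followed at 326 ± 37.7, Tubb4a at 159 ± 29.8, Tubb4b at 48.3 ± 8.63 and Tuba1b at 23.7 ± 6.24 CPM per kb. On this scale each of these ranges lay apart from its neighbours in the order. The scale divides by the full exonic length, although 19.8% of the windows of Tuba1b and 57.2% of those of Tubb4b were their own. The places of members with shared sequence were therefore not settled. Tubb6 (2.44 ± 0.970) and Tuba1c (1.60 ± 0.840) were lowest and overlapped each other. The 8 genes most abundant in Bahd1-WT embryos were also the 8 most abundant in Bahd1-KO replicates 1 and 2 by their mean. Tuba1a lay above Tubb2b in Bahd1-KO replicate 1 (770.5 against 562 CPM per kb) and in Bahd1-WT replicate 1 (849 against 826), and below it in Bahd1-KO replicate 2 (869 against 1071) and the other Bahd1-WT embryos. In Bahd1-KO replicate 3 the order was another one, with Tubb5 (78.8), Tubb4a (53.7) and Tubb4b (32.0) ahead of Tuba1a (25.0), Tubb2a (21.8), Tubb3 (9.56) and Tubb2b (8.68 CPM per kb).

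**Figure D2:**
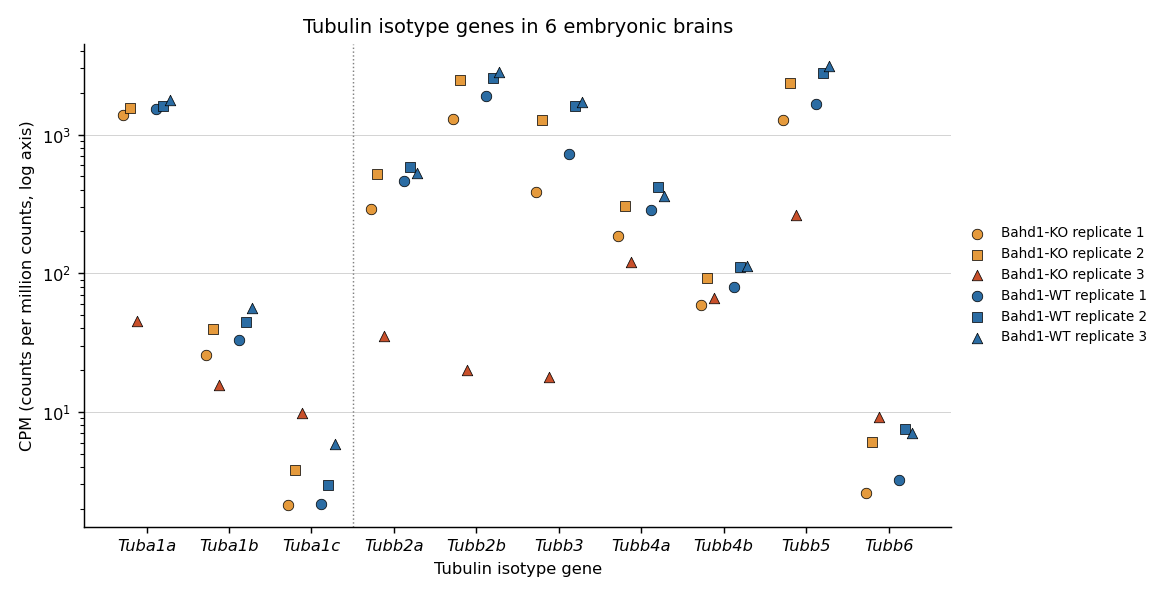
Points give the level of each tubulin isotype gene (x axis, 3 alpha genes left of the dotted line, 7 beta genes right of it) in each of the 6 embryos as CPM on a log axis; colour shows the genotype, with Bahd1-KO replicate 3 in red, and symbols the replicate number. Bahd1-KO replicate 3 lies far below the other 5 for Tuba1a (45.0 against 1389 to 1773 CPM), Tubb2b and Tubb3, and above them for Tuba1c and Tubb6.

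Among the alpha members, Tuba1a, the principal alpha-tubulin of developing neurons (chromosome 15, 98949837 to 98953703, reverse strand, GRCm38), had 1389, 1566 and 45.0 CPM in Bahd1-KO replicates 1, 2 and 3. Its levels in Bahd1-WT replicates 1, 2 and 3 were 1531, 1614 and 1773 CPM. The levels of Bahd1-KO replicates 1 and 2 lay close to those of Bahd1-WT, with 1 Bahd1-KO embryo inside the Bahd1-WT range, while replicate 3 held 2.86% of the mean of the other 5. The log2 fold change of Tuba1a was -0.71 (SE 0.888, adjusted p 0.788) in edgeR's quasi-likelihood test of all embryos and -0.17 (SE 0.181, adjusted p 0.981) without Bahd1-KO replicate 3. Tuba1a was also the alpha gene with the narrowest spread among Bahd1-WT embryos, whose highest level was 1.16 times the lowest.

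Tuba1b, an alpha-tubulin used by most cell types (chromosome 15, 98931425 to 98934565, reverse strand), had 25.8, 39.6 and 15.6 CPM in Bahd1-KO and 32.8, 44.4 and 56.2 CPM in Bahd1-WT replicates 1, 2 and 3. Its log2 fold change was -0.57 (SE 0.300, adjusted p 0.696), and -0.46 (SE 0.290, adjusted p 0.981) without Bahd1-KO replicate 3. The genotypes overlapped, and Bahd1-KO replicate 3 was lowest. Tuba1c (chromosome 15, 99029891 to 99038110, forward strand), which also encodes an alpha-tubulin of many tissues, had 2.14, 3.81 and 9.84 CPM in Bahd1-KO and 2.18, 2.99 and 5.84 CPM in Bahd1-WT. Here Bahd1-KO replicate 3 was the highest embryo, and the log2 fold change of 0.97 (SE 0.773, adjusted p 0.698) became -0.31 (SE 0.451, adjusted p 0.981) without it.

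Among the beta members, Tubb2b, a beta-tubulin of migrating and axon-forming neurons (chromosome 13, 34126748 to 34130466, reverse strand), had 1288, 2458 and 19.9 CPM in Bahd1-KO replicates 1, 2 and 3. In Bahd1-WT replicates 1, 2 and 3 it had 1894, 2572 and 2846 CPM. Bahd1-KO replicate 2 lay inside the Bahd1-WT range, replicate 1 below it, and replicate 3 was 111-fold below the mean of the other 5, the widest gap of the 10 genes (70.1-fold in TMM-scaled CPM). The log2 fold change of Tubb2b was -0.96 (SE 1.11, adjusted p 0.770) with all embryos and -0.40 (SE 0.303, adjusted p 0.981) without Bahd1-KO replicate 3. Its neighbour Tubb2a (chromosome 13, 34074274 to 34078007, reverse strand), a beta-tubulin of brain that is also made in other tissues, had 289, 518 and 35.0 CPM in Bahd1-KO and 464, 585 and 525 CPM in Bahd1-WT. The log2 fold changes of Tubb2a were -0.88 (SE 0.674, adjusted p 0.696) with all embryos and -0.40 (SE 0.270, adjusted p 0.981) without Bahd1-KO replicate 3, and again replicate 2 of Bahd1-KO overlapped the Bahd1-WT range.

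Tubb3, the neuron-specific beta-tubulin widely used as a marker of neurons (chromosome 8, 123411424 to 123422015, forward strand), had 387, 1266 and 17.9 CPM in Bahd1-KO replicates 1, 2 and 3. In Bahd1-WT replicates 1, 2 and 3 it had 728, 1613 and 1722 CPM. It varied more within genotypes than any other abundant isotype, since the highest Bahd1-WT level was 2.36 times the lowest and Bahd1-KO replicates 1 and 2 differed by 3.27 times. Its log2 fold change was the most negative of the 10, at -1.29 (SE 1.06, adjusted p 0.703), and -0.72 (SE 0.520, adjusted p 0.981) without Bahd1-KO replicate 3. The genotypes overlapped in both cases, because Bahd1-KO replicate 2 exceeded Bahd1-WT replicate 1.

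Tubb5, a beta-tubulin abundant in dividing neural progenitors and in young neurons (chromosome 17, 35833921 to 35838306, reverse strand), had 1280, 2368 and 262 CPM in Bahd1-KO and 1658, 2755 and 3124 CPM in Bahd1-WT replicates 1, 2 and 3. Bahd1-KO replicate 3 was 8.54-fold below the mean of the other 5, less far than for Tubb2b and Tubb3. Per kilobase it was the one embryo in which Tubb5 was the most abundant member, whereas in CPM Tubb5 also exceeded Tubb2b in Bahd1-WT replicates 2 and 3. The log2 fold change of Tubb5 was -0.90 (SE 0.593, adjusted p 0.696), and -0.47 (SE 0.337, adjusted p 0.981) without that embryo.

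Tubb4a, an isotype of neurons and of myelinating oligodendrocytes (chromosome 17, 57080066 to 57087782, reverse strand), had 187, 305 and 120 CPM in Bahd1-KO replicates 1, 2 and 3. In Bahd1-WT replicates 1, 2 and 3 it had 286, 419 and 360 CPM. Only Bahd1-KO replicate 2 overlapped the Bahd1-WT embryos, and replicate 3 was 2.60-fold below the mean of the other 5. Tubb4a had the lowest unadjusted p of the 10 genes, 0.0556 in edgeR, with a log2 fold change of -0.66 (SE 0.287) and an adjusted p of 0.696. Without Bahd1-KO replicate 3 the log2 fold change of Tubb4a was -0.55 (SE 0.266, adjusted p 0.981), which makes it one of the members that moved least when this embryo was left out.

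Tubb4b, a beta-tubulin of most cell types that is rich in cilia (chromosome 2, 25222160 to 25224702, reverse strand), had 58.7, 92.6 and 66.8 CPM in Bahd1-KO and 80.2, 111 and 112 CPM in Bahd1-WT replicates 1, 2 and 3. Tubb4b was the single member for which Bahd1-KO replicate 3 lay within the range of the other 5. The log2 fold change of Tubb4b was -0.24 (SE 0.285, adjusted p 0.772), and -0.43 (SE 0.259, adjusted p 0.981) without that embryo. Tubb6 (chromosome 18, 67390717 to 67402749, forward strand), a beta-tubulin known from non-neuronal cells such as muscle and fibroblasts, had 2.61, 6.04 and 9.16 CPM in Bahd1-KO and 3.23, 7.52 and 7.09 CPM in Bahd1-WT. Bahd1-KO replicate 3 was the highest embryo for Tubb6, and the log2 fold change went from 0.37 (SE 0.644, adjusted p 0.848) to -0.47 (SE 0.467, adjusted p 0.981) without it.

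Over all 10 members, the comparison of genotypes gave 0 genes past an adjusted p of 0.05 in edgeR (lowest 0.696), where 0.00404% of 24739 genes tested passed. At an unadjusted p under 0.05 edgeR gave 0 members, beside 1156 of the 24739 genes. Without Bahd1-KO replicate 3, 0 members passed, against 0.0171% of 23334 genes. DESeq2 called 0 members, against 0.0323% of genes. In DESeq2 1 member had an unadjusted p under 0.05 (Tubb4a, 0.0396), beside 1266 of 24739 genes, so this does not set the isotypes apart. The standard errors bound what could be seen: with all embryos they ran from 0.285 (Tubb4b) to 1.11 (Tubb2b) on the log2 scale, and a p that misses the threshold does not show that the levels were alike.

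The log2 fold change was below 0 for 8 of the 10 members with all embryos, where 46.2% of all genes lay below 0, and for 10 of 10 without Bahd1-KO replicate 3, where 50.8% did. The median over the members was -0.68 with all embryos (0.06 over all genes) and -0.44 without Bahd1-KO replicate 3 (-0.01 over all genes). The 10 values come from the same embryos and are not independent of each other. In CPM scaled with TMM factors, every Bahd1-KO embryo lay below every Bahd1-WT embryo for 1 member, Tuba1a, where 2.24% of genes did so, and Bahd1-KO replicates 1 and 2 lay below the Bahd1-WT embryos again for Tuba1a alone among the members, where 4.35% of genes did so. In unscaled CPM the genotypes overlapped for Tuba1a too.

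**Figure D3:**
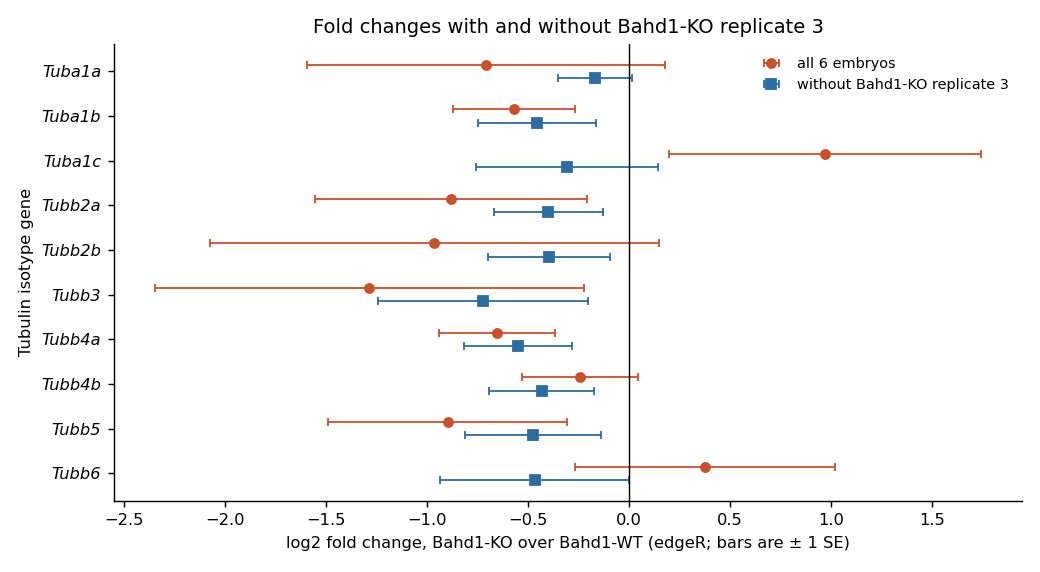
Points give the log2 fold change of each tubulin isotype gene (y axis), Bahd1-KO over Bahd1-WT, from edgeR with all 6 embryos (red) and without Bahd1-KO replicate 3 (blue), and bars are ± 1 SE. With all embryos 8 of 10 values lie below 0, and without that embryo all 10 do, with Tuba1c and Tubb6 crossing from 0.97 and 0.37 to -0.31 and -0.47.

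Within both genotypes, the embryo numbered 1 held the lowest TMM-scaled level of the genotype for 10 of 10 members once Bahd1-KO replicate 3 was left out, where this was so for 31.5% of genes. Between Bahd1-KO replicates 1 and 2 the gap in CPM was widest for Tubb3 (3.27 times) and narrowest for Tuba1a (1.13 times). Among Bahd1-WT embryos the highest level was 1.16 (Tuba1a) to 2.68 times (Tuba1c) the lowest. With the same embryo left out, 4 of the 12 marker lists had their lowest median of the genotype in both embryos numbered 1, beside 31.5% of single genes. These medians are of log2 levels against the mean of the other 5 embryos. Bahd1-KO replicate 3 stayed in that mean and was left out of the ranking only. In Bahd1-KO replicate 1 these medians were -0.70 for blood, -0.67 for endothelium, -0.66 for microglia and -0.08 for radial glia and astrocytes. In Bahd1-WT replicate 1 they were -1.32, -0.56, -0.27 and -0.12 in that order. The neuronal list did not show this, with medians of 0.492, 0.486 and 0.326 in Bahd1-WT replicates 1, 2 and 3. In Bahd1-KO replicates 1 and 2 its medians were 0.175 and 0.482. The part of these cell types in the tubulin levels was not tested.

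Bahd1-KO replicate 3 was the lowest embryo for 7 of 10 members in TMM-scaled CPM, where this was so for 36% of genes, and the highest for 2 members, where this was so for 38.1% of genes. It lay at least 4-fold below the mean of the other 5 for 5 members, Tuba1a, Tubb2a, Tubb2b, Tubb3 and Tubb5, against 11.1% of genes. On this scale it was 22.1-fold lower for Tuba1a, 40.2-fold for Tubb3, 8.59-fold for Tubb2a and 5.38-fold for Tubb5. The scale matters for the members nearer the other embryos. Per 1e6 counts of protein-coding genes, Tuba1b and Tubb4a of this embryo lay within the range of the other 5, and Tubb4b lay above it, while the 5 members named remained lowest.

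The make-up of each family was described as the share of an isotype among the alpha or the beta members per exonic length. Tuba1a made up 97.3 ± 0.538% of the alpha members in Bahd1-WT (mean ± SD, n = 3), 98.1 and 97.4% in Bahd1-KO replicates 1 and 2, and 66.4% in replicate 3. In that embryo Tuba1b took 22.1% and Tuba1c 11.4%, against at most 2.95 and 0.251% in the other 5. Alpha-tubulin genes outside the 10 did not enter these shares. In that embryo Tuba4a had 47.4 CPM, beside 45.0 CPM for Tuba1a, before division by length. Own windows made up 27.5% of those of Tuba1a and 19.8% of those of Tuba1b, so the alpha shares were not settled. The beta members of Bahd1-WT embryos consisted of 35.0 ± 2.76% Tubb2b, 24.3 ± 1.40% Tubb5, 22.8 ± 4.21% Tubb3, 11.0 ± 2.18% Tubb2a, 5.28 ± 0.764% Tubb4a and 1.60 ± 0.154% Tubb4b. Bahd1-KO replicates 1 and 2 held 38.8 and 36.1% Tubb2b, 26.6 and 24.0% Tubb5 and 14.3 and 22.8% Tubb3. In replicate 1 the shares of Tubb2b, Tubb5 and Tubb4b (1.94%) lay above those of every Bahd1-WT embryo (at most 38.1, 25.8 and 1.77%), and that of Tubb3 lay below them all. In replicate 2 these 4 shares lay within the Bahd1-WT range. Bahd1-KO replicate 3 held 4.17% Tubb2b and 4.59% Tubb3, with 37.8% Tubb5, 25.8% Tubb4a and 15.4% Tubb4b in their place. The share of Tubb2a, 10.4%, stayed inside the range of the other 5 (8.95 to 13.3%).

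**Figure D4:**
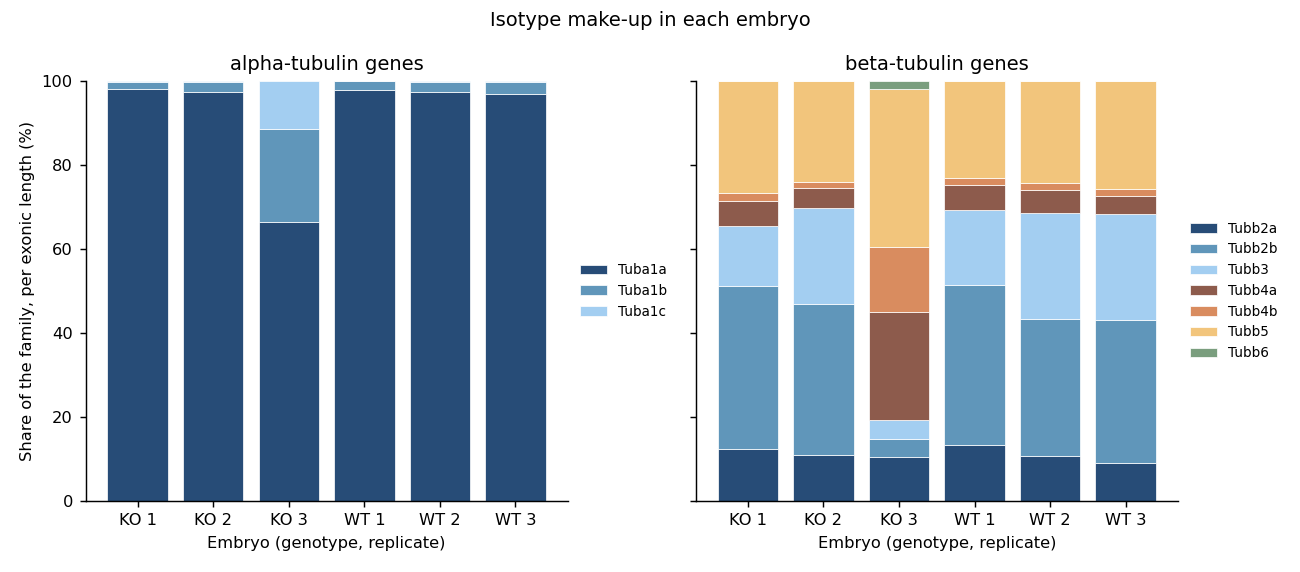
Stacked bars give the share of each isotype among the alpha or the beta members per exonic length (y axis, %) for each embryo (x axis). The 3 alpha members are on the left and the 7 beta members on the right, and other tubulin genes do not enter. Tuba1a fills over 96% of the alpha bar in 5 embryos and 66.4% in Bahd1-KO replicate 3, where Tubb2b and Tubb3 shrink to 4.17 and 4.59% of the beta bar.

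Among the tubulin genes outside the 10, Tuba4a, an alpha-tubulin whose tail lacks the encoded tyrosine, had 7.27, 15.4 and 47.4 CPM in Bahd1-KO and 14.7, 13.4 and 8.76 CPM in Bahd1-WT replicates 1, 2 and 3. Tuba8, an alpha-tubulin of muscle and testis, had 0.308, 0.693 and 9.37 CPM in Bahd1-KO and 0.741, 0.515 and 0.526 CPM in Bahd1-WT. Both stood highest in Bahd1-KO replicate 3, as Tuba1c and Tubb6 did. Their log2 fold changes were 1.39 (SE 0.807) and 3.13 (SE 1.37), each with an adjusted p of 0.696, and -0.15 and -0.26 without that embryo. Tubg1 and Tubg2, which encode the gamma-tubulin of nucleation complexes, had log2 fold changes of -0.69 and -0.73 with all embryos, and Tubd1 and Tube1, the delta- and epsilon-tubulins of centrioles, of 0.33 and 0.07. In the list of 10 other tubulin genes, 8 were tested and 0 were called, beside 0.00404% of all genes tested. Of the 8 genes, 6 were higher and 2 lower in Bahd1-KO, with a median of 0.62, which was -0.20 without Bahd1-KO replicate 3. Tuba3a and Tuba3b, known from testis, had at most 1 count in any embryo and were not tested.

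The genes that fold, modify and use tubulin gave 0 calls in every list, both with all embryos and without Bahd1-KO replicate 3. Among all genes tested, 0.00404% were called with all embryos and 0.0171% without Bahd1-KO replicate 3, so 0 calls do not set these lists apart. Of 21 genes of tubulin folding (prefoldin, the CCT chaperonin and the tubulin cofactors), 5 were higher and 16 lower. Their median log2 fold change was -0.18, with values from 0.29 for Pfdn1, a prefoldin subunit, to -0.86 for Tbcb, a cofactor of alpha-tubulin folding. Of 21 tubulin-modifying enzymes, 7 were higher and 14 lower, with a median of -0.42, from 0.94 for Ttll7, a polyglutamylase of beta-tubulin, to -0.93 for Ttll12. Several of these enzymes act on the tails shown above for beta members. Of 26 genes of microtubule-associated proteins, 4 were higher and 22 lower, with a median of -0.54, from 1.42 for Map7, an activator of kinesin-1, to -1.08 for Map1s. Motors gave 4 higher and 11 lower genes (median -0.30, from 0.36 for Kif5b, a kinesin-1 heavy chain, to -0.90 for Dctn1, a dynactin subunit), and nucleation factors 5 and 5 (median -0.03, from 0.69 for Nedd1, which brings gamma-tubulin complexes to the spindle, to -0.61 for Tubgcp2, one of their subunits). The 3 genes of tubulin mRNA autoregulation had a median of -0.11, with -0.20 for Ttc5, -0.09 for Scaper, and adjusted p-values of 0.838 and 0.926. The other genes named here had adjusted p-values of 0.696 to 0.712. Over all genes the median was 0.06, and 46.2% lay below 0. Without Bahd1-KO replicate 3 the medians moved to -0.18 for microtubule-associated proteins (7 higher and 19 lower), -0.12 for modifying enzymes (5 and 16), -0.098 for motors (6 and 9), -0.039 for folding (10 and 11), -0.0068 for nucleation (4 and 6) and 0.056 for autoregulation (2 and 1), beside -0.01 over all genes.

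By embryo, the lists of the microtubule system were low in Bahd1-KO replicate 3, as 7 of the isotypes were. Set against the mean of the other 5, its median log2 level was -1.64 for microtubule-associated proteins, -1.28 for tubulin-modifying enzymes, -1.02 for motors, -0.79 for autoregulation, -0.74 for folding and -0.40 for nucleation, beside -1.51 for the 10 isotypes and -0.01 for all genes. In the other 5 embryos the medians of the 6 lists other than the isotypes ran from -0.11 (modifying enzymes) to 0.60 (microtubule-associated proteins). The other tubulin genes went the other way, at 0.43 in Bahd1-KO replicate 3 and -0.51 to -0.09 elsewhere.

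Markers of cell types and of other tissues moved in the same embryo. Their summed levels are given in unscaled CPM, and genes are counted as higher or lower than the mean of the other 5 in TMM-scaled log2 levels. The summed level of the 12 neuronal markers was 1458 CPM in Bahd1-KO replicate 3, against 4715 and 5799 CPM in Bahd1-KO replicates 1 and 2 and 5565 to 5691 CPM in Bahd1-WT, and 9 of the 12 were lower (11 of 12 in unscaled CPM). Lung markers summed to 1214 CPM in that embryo, with 8 of 8 higher, against 0.405 and 13.0 CPM in the other Bahd1-KO embryos and 0.392 to 0.613 CPM in Bahd1-WT. Myelinating oligodendrocyte markers summed to 908 CPM with 8 of 8 higher, against 86.1 to 95.3 CPM and 88.4 to 170 CPM. In unscaled CPM 7 of these 8 were higher, and Cldn11 was lowest in that embryo (13.9 against 16.3 to 22.3 CPM). Meningeal and connective tissue markers summed to 1951 CPM with 7 of 8 higher, against 443 to 494 CPM and 395 to 520 CPM. Skeletal muscle markers summed to 102 CPM with 8 of 8 higher, against 2.98 to 5.45 CPM and 4.57 to 14.5 CPM.

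By list, the medians of Bahd1-KO replicate 3 on this log2 scale were -2.08 for neurons, -1.69 for choroid plexus, 0.26 for radial glia and astrocytes, 0.37 for microglia and 0.52 for dividing progenitors. They were 1.29 for endothelium, 1.35 for blood, 1.61 for mature forebrain neurons, 2.62 for meninges and connective tissue, 3.30 for skeletal muscle, 3.79 for myelinating oligodendrocytes and 7.37 for lung. Summed levels went the other way for radial glia and astrocytes, at 1209 CPM against 2132 to 2585 CPM elsewhere, with 4 of 8 genes higher in TMM-scaled levels. Among them Fabp7, a fatty acid binding protein of radial glia, had 10.03 CPM against 457 to 615 CPM. Microglial markers summed to 76.1 CPM against 79.4 to 104 CPM, with 7 of 8 higher in TMM-scaled levels and 2 of 8 in unscaled CPM. Blood markers summed to 293 CPM, against 172 and 656 CPM in the other Bahd1-KO embryos and 139 to 556 CPM in Bahd1-WT. Of these, 7 of 8 were higher in TMM-scaled levels and 4 of 8 in unscaled CPM. The list of dividing progenitors was split, with 7 of 12 higher in TMM-scaled levels and 6 of 12 in unscaled CPM. Among the lower, Eomes had 3.57 CPM against 59.6 to 116 CPM, and Neurog2 had 0.481 CPM against 21.1 to 44.2 CPM. Among the higher, Mki67 had 453 CPM against 167 to 285 CPM. Cldn11, Fabp7, Eomes, Neurog2 and Mki67 were chosen after their values were seen. No marker of these lists was at 0 in that embryo. In the other embryos up to 2 lung markers and 1 myelin marker were at 0. The part of these cell types, and of the ribosomal RNA share, in the tubulin levels of Bahd1-KO replicate 3 was not tested. Without that embryo, the neuronal markers had a median log2 fold change of -0.09 between genotypes, beside -0.44 for the isotypes. The difference between these medians was not tested.

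**Figure D5:**
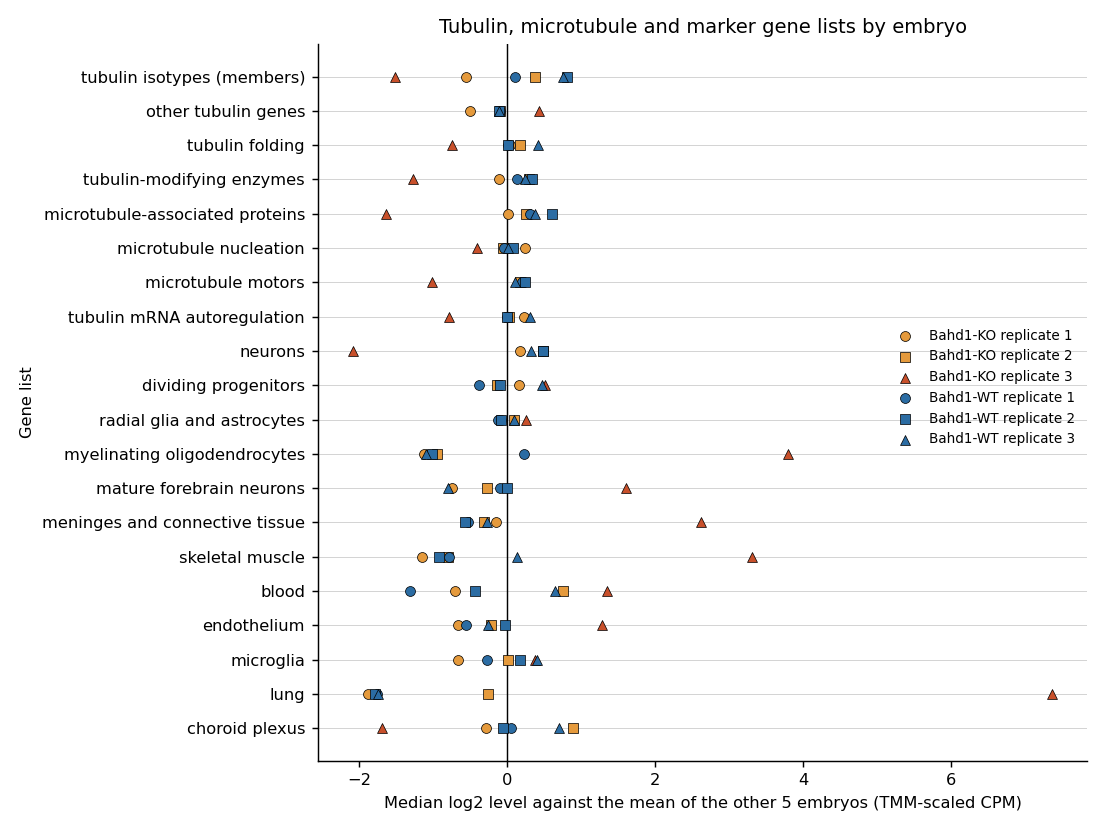
Points give, for each gene list (y axis), the median log2 level of each embryo against the mean of the other 5 in TMM-scaled CPM (x axis); colours and symbols mark genotype and replicate, with Bahd1-KO replicate 3 in red. That embryo sits at -1.51 for the tubulin isotypes and -2.08 for neuronal markers, and at 7.37 for lung and 3.79 for myelinating oligodendrocyte markers.

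The genes whose profile over the 6 embryos was most like that of a member were sought for 3 members among 10157 genes with a mean of at least 10 CPM, by the Euclidean distance between mean-centred log2 TMM-scaled CPM. All 6 embryos entered, so that Bahd1-KO replicate 3 weighed most. The likeness of the levels given below follows from this choice and is no separate result. Nearest to Tuba1a were the long non-coding RNA Six3os1 (distance 0.223), 4931428F04Rik (0.297) and Cacng4 (0.325), while the nearest other member was Tubb2a (1.42). Six3os1 had 29.0, 26.2 and 0.519 CPM in Bahd1-KO and 28.7, 29.4 and 33.1 CPM in Bahd1-WT, a drop in replicate 3 like that of Tuba1a. Nearest to Tubb3 were Plppr3 (0.401), Crmp1, a collapsin response mediator of growing axons (0.820), and Apc2, a neuronal microtubule regulator (0.882), before Tubb2b (1.25). Plppr3 had 49.8, 179 and 2.65 CPM in Bahd1-KO and 81.2, 216 and 225 CPM in Bahd1-WT, with the low level in both embryos numbered 1 that Tubb3 showed. Nearest to Tubb6 were Cd248, a marker of pericytes and fibroblasts (0.197), Ltbp3 (0.199) and Myh9, a non-muscle myosin heavy chain (0.210), each highest in Bahd1-KO replicate 3. Its nearest fellow member was Tubb4b (1.24).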

How the data were processed

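RNA-seq counts of 3 Bahd1-KO and 3 Bahd1-WT embryos were compared, with groups and replicate numbers taken from the sample titles. The deposited values are raw read counts per gene, without normalization or filter. The authors selected polyadenylated RNA, prepared stranded TruSeq libraries, trimmed 65-base reads with cutadapt (version 1.11), aligned them to GRCm38 and counted exonic reads per Ensembl gene with featureCounts (version 1.4.6-p3). STAR (version 2.5.0a) is named in the submitters' processing notes, and TopHat2 is also named in the study's methods. A paired-end run with shorter reads is also described in the study's supplement. Treatment of reads that match several genes is not given in the sources used here.

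Genes whose counts summed to 10 or more were tested with edgeR's quasi-likelihood test (version 4.0.16, R 4.3.3), two-sided, with TMM factors and no covariate beside genotype. Benjamini-Hochberg adjustment covered all tested genes, and the threshold was 0.05. The script was tested on simulated counts with known changes. Their means and dispersions were estimated without Bahd1-KO replicate 3, so this test does not show what the fit can detect with that embryo included. DESeq2 (version 1.42.0) and voom with embryo quality weights (limma 3.58.1) served as alternatives, beside other filters, factors and left-out embryos. CPM is relative to all counts of an embryo. TMM-scaled CPM divides by the scaled library size, with a pseudocount of 0.5 where log2 levels are given. Exonic lengths, positions and sequences came from GENCODE M21, which matched 53620 genes. Gene lists comprised the other genes of the microtubule system and markers of cell types. Named genes outside the 10 were, per list, those with the highest and the lowest log2 fold change among genes of at least 10 CPM, other tubulin genes of at least 1 CPM, and the 3 genes most like Tuba1a, Tubb3 and Tubb6. Members and lists were chosen with earlier results of these data known.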

Additional observations from a re-analysis of the deposited data

How the results depend on the processing

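No tubulin isotype and no other gene of the microtubule system was called in any of the 17 alternatives to the fit. Of 170 recomputed fold changes of members, 162 kept their direction. For Tuba1c the direction turned to -0.22 with voom and embryo quality weights, -0.31 without Bahd1-KO replicate 3 and -0.32 in DESeq2 without it. For Tubb6 it turned to -0.74 with voom, -0.47 without Bahd1-KO replicate 3, -0.47 in DESeq2 without it, -0.35 with the replicate block and that embryo left out, and -0.00081 with total counts as library sizes. Leaving out 1 embryo at a time gave -0.31 to 1.43 for Tuba1c and -0.47 to 0.78 for Tubb6. Bahd1-KO replicate 3 was left out in each setting that turned a direction, except voom and total counts. Leaving it out also took Tubb3 from -1.29 to -0.72, Tubb2b from -0.96 to -0.40 and Tuba1a from -0.71 to -0.17, while leaving out Bahd1-KO replicate 2 took them to -2.72, -1.90 and -1.18. Total counts moved the median of all genes from 0.06 to -0.11 and the share of genes above 0 from 53.8 to 42.1%, and upper-quartile factors moved the median to 0.17. Over all genes, 1 was called, against 8 in DESeq2, 6 with voom, 4 without Bahd1-KO replicate 3 and 11 in DESeq2 without it. Embryos of equal replicate number deviated from their genotype means with correlations of 0.28, 0.37 and -0.13. Bahd1-KO replicate 2 had 0.39 with Bahd1-WT replicate 3, and Bahd1-KO replicate 1 had -0.19 and -0.21 with Bahd1-WT replicates 2 and 3. The Bahd1-KO mean included replicate 3, so these values cannot decide whether the numbers pair the embryos. The replicate block gave 0 called members, 0 called genes (16 with Bahd1-KO replicate 3 left out) and -2.02 for Tubb3. Of 200 recomputed levels and shares, 16 moved by over 1 SD, 9 of them with own windows in place of exonic length, an alternative chosen after seeing the data, which took Tubb2b from 35.0 to 41.8% and Tubb5 from 24.3 to 19.8% of the beta members in Bahd1-WT. The planned length unique in the genome was not run, as no genome was used here. Shared sequence limits the alpha levels, with 19.8 to 41.8% of their windows their own, and depth limits Tuba1c, which had as few as 132 counts.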
